A study of Caenorhabditis elegans with 18 samples.

Results

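The stretch of chromosome II from 2 to 3 Mb, on the left arm in genome build ce10, was described by its small RNA reads in early Caenorhabditis elegans embryos. Reads in bins of 20 bp were summed to windows of 1 kb, and a window was a member where it held at least 30 reads over all 18 libraries. Of the 1000 windows in the stretch, 672 met this rule, out of 14514 in the whole table, which holds all of chromosome I and the first 5.9 Mb of chromosome II. The rule used the sum of unscaled reads over all libraries, to which N2 gave most, so it favours windows filled in N2 over those filled in a mutant alone. The 1 kb grid is offset by the first base of the bins, so that a window runs, for example, over chrII:2091017-2092016.

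Small RNA was sequenced from whole early embryos before the bean stage, collected 60 to 65 h after synchronised first larvae, in 6 strains with 3 libraries each. The strains were wild-type N2 (Bristol), the single mutants nrde-3(tm1116) on chromosome X, met-2(n4256) on chromosome III and set-25(n5021) on chromosome III, and the double mutants met-2(n4256);nrde-3(tm1116) and set-25(n5021);nrde-3(tm1116). The labels give no transgene, treatment or allele that all strains share, and the mutations are carried by the whole animal rather than by chosen cells. Each strain has libraries numbered 1 to 3, but the growth protocol speaks of 2 biological replicates. The p-values here therefore describe the spread between libraries, which may be technical in part. The met-2;nrde-3 and set-25;nrde-3 strains are called the met-2 double mutant and the set-25 double mutant.

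In C. elegans, many small RNAs of embryos are made by RNA-dependent RNA polymerases on messenger or transposon RNA, and Argonaute proteins bind them. NRDE-3 is an Argonaute that carries such secondary small interfering RNAs into the nuclei of somatic cells, where they are known to guide silencing of the matching genes. Lysine 9 of histone H3, whose methylation marks silent chromatin, is modified by 2 enzymes of interest here: MET-2, known for the lower methylation states, and SET-25, known for trimethylation. The arms of the worm autosomes are rich in repeats and in this mark. The reads in the table are not separated by strand or length, so a window's level sums all kinds of small RNA mapped there.

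Total reads per library ran from 1680028 to 4384593, of which 107663 to 403030 lay between 2 and 3 Mb. Some libraries stood apart. In replicates 1 and 2 of the met-2 double mutant, 5.94% and 7.15% of the bins of the stretch held a read, against 10.4% to 16.5% in the other 16 libraries. Replicate 3 of nrde-3 lay above its 2 fellow libraries in many of the windows where nrde-3 was low, as given below. The last 13 kb of chromosome I took from 27.0% ± 5.15 of all reads in N2 (SD, n = 3) to 61.3% ± 6.56 in the set-25 double mutant, and levels here are therefore scaled by TMM, a scaling on the bulk of windows. The mutated genes lie on chromosomes that the table does not cover, so the genotypes were not checked from the reads.

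The reads of the stretch were unevenly spread. The 10 fullest of the 672 windows held 69.7% of the 3506076 reads in members, the 20 fullest 79.9% and the 50 fullest 89.1%, while 328 of the 1000 windows held 1 to 29 reads and none was empty. Member totals ran from 30 reads, the value of 8 windows just inside the rule, through a median of 209.5 to 1275692. The fullest windows just outside held 29. Each 100 kb had between 34 and 92 members. The median member had 23.1% of its reads in its fullest 20 bp bin.

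**Figure D1:**
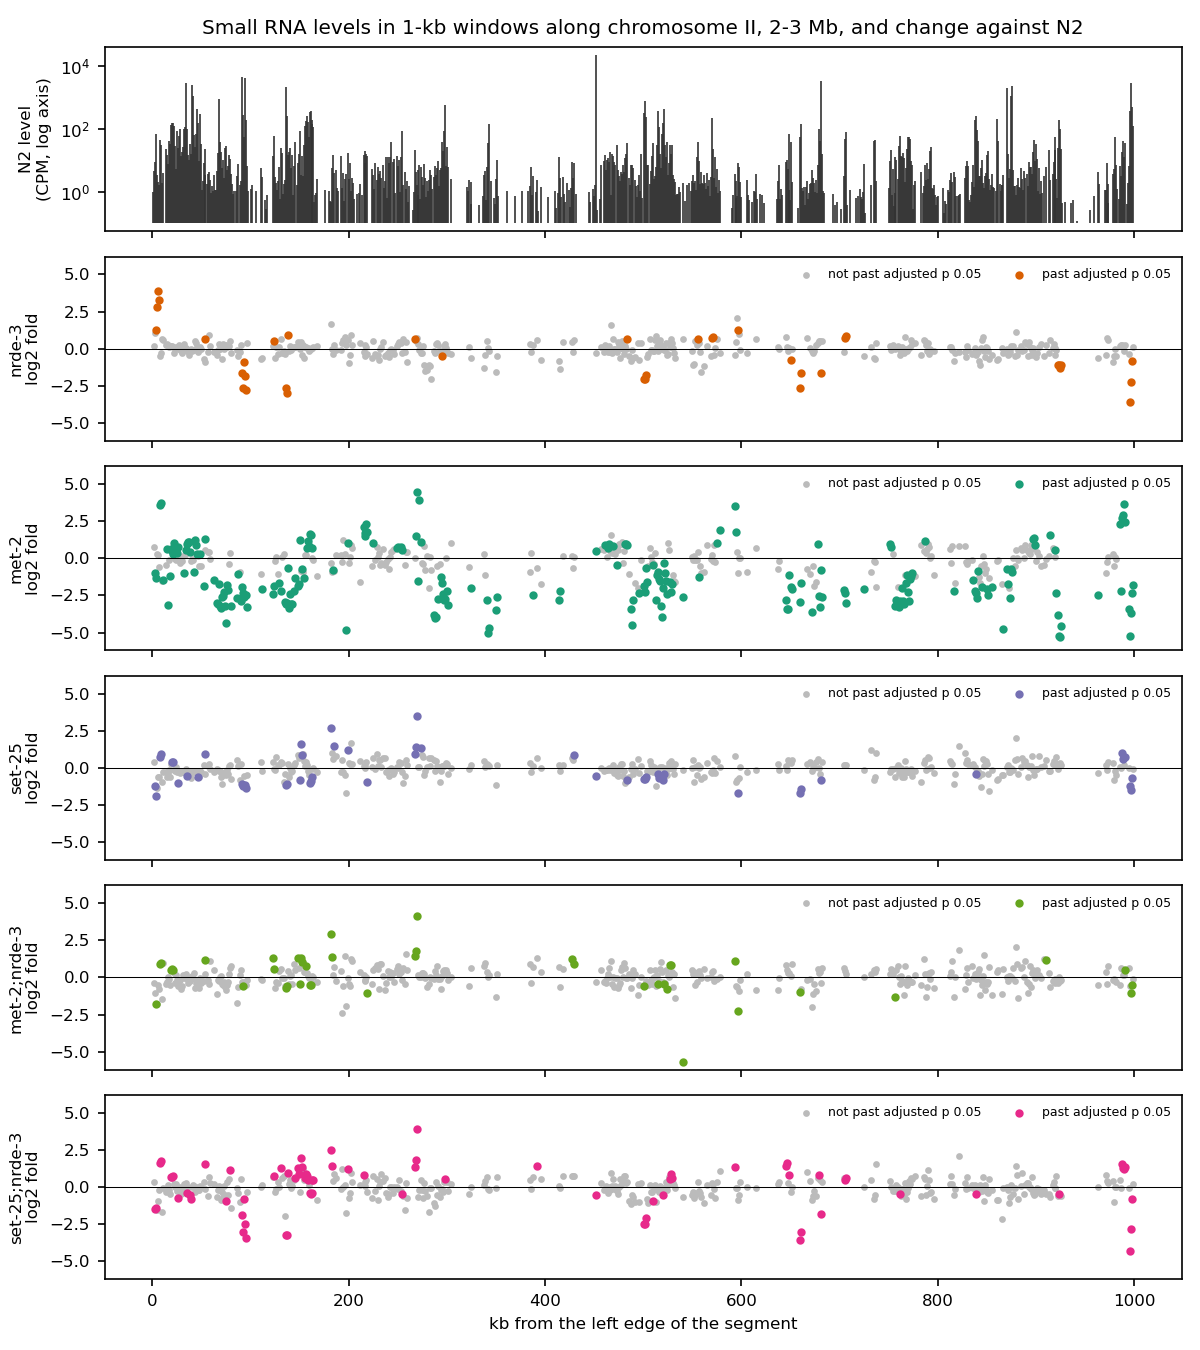
Levels of the members along the stretch in N2 (upper panel, CPM on a log axis) and log2 fold changes against N2 of the tested windows in the 5 mutants (lower panels), by distance in kb from the left edge of the stretch, with coloured points past an adjusted p of 0.05. Most members lie near 10 CPM or under while a few lie far above, the lowest point of the met-2;nrde-3 panel is a window with no read in that strain and so gives no fold, and the met-2 panel holds far more coloured points than the others, 160 lower and 67 higher of 456.

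A single bin dominated the stretch. The window chrII:2452017-2453016 held 1275692 reads over all libraries, and 99.9% of them fell in the 20 bp at chrII:2452857-2452876. Its level was 20069, 24318 and 22745 CPM (read count scaled to the library size after TMM) in the N2 libraries and 16900, 15902 and 22990 in those of nrde-3. It was 33940, 31335 and 28726 CPM in met-2 and 16643, 15003 and 13691 in set-25. The double mutants gave 16355, 16948 and 20285 CPM with met-2 and 17903, 13726 and 13600 with set-25. The met-2 libraries lay above all others and the set-25 libraries below those of N2. In edgeR's quasi-likelihood test the log2 fold change was 0.49 ± 0.13 (SE, adjusted p = 0.0046) in met-2 and -0.57 ± 0.13 (adjusted p = 0.00919) in set-25. Without scaling by TMM the change in met-2 was -0.018, which turns its direction, and leaving out N2 replicate 2 (adjusted p = 0.0635, edgeR) or set-25 replicate 3 (0.0724) ended the call in set-25. This one window made up 30.5% to 50.9% of the summed level of the members by strain.

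The share of all reads that fell between 2 and 3 Mb was 8.87% ± 0.740 in N2 (SD, n = 3 in each strain), 4.22% ± 0.427 in set-25, 5.42% ± 1.36 in nrde-3 and 5.62% ± 0.623 in met-2. It was 7.30% ± 1.55 in the met-2 double mutant and 3.52% ± 0.470 in the set-25 double mutant. Every library of the 3 single mutants and the set-25 double mutant lay under all of N2, with an exact two-sided permutation p of 0.1 each, the smallest that 3 against 3 libraries allow (adjusted p = 0.117 over 7 comparisons, exact permutation test). For the met-2 double mutant against N2 the exact permutation p was 0.2. The share of the right end of chromosome I moved with these values, and with that end left out the shares came to 12.2% ± 0.205 in N2 and 9.15% ± 0.371 to 10.9% ± 0.509 in the 5 mutants. All mutant libraries then still lay under those of N2, again at an exact permutation p of 0.1. As a share of the chromosome II reads in the table used, the stretch went the other way in met-2. It held 40.6% ± 1.05 there and 33.0% ± 0.425 in N2, with every met-2 library above every N2 library (exact permutation p = 0.1). The other mutants held 29.6% ± 0.963 to 31.5% ± 0.941. The fullest window alone held 53.0%, 50.8% and 48.8% of the member reads in the met-2 libraries, against 29.5%, 35.0% and 33.9% in N2. Without this window the stretch held 2.76% ± 0.228 of all reads in met-2 and 5.97% ± 0.659 in N2. Its share of the chromosome II reads without this window was not tested. The higher share in met-2 is therefore not shown for the rest of the stretch.

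Of the 672 members, 456 had enough reads to be tested. The 216 others had at most 115 reads over all libraries, and the fewest reads of a tested member were 64. The tested windows had a median N2 level of 7.61 CPM, against 8.61 CPM over the 10730 windows tested in the whole table. In at least 1 of the 5 comparisons with N2, 250 of the 456 tested members passed an adjusted p of 0.05, and 206 passed in none. These comparisons share the N2 libraries. No such count is given here over the 10730 windows, so it does not set this stretch apart. In met-2 alone, 15.3% of those windows were called higher and 23.0% lower.

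Small RNA levels were lower in nrde-3 at a small number of loci, several of them among the most abundant of the stretch. In nrde-3 against N2, 22 tested members were lower and 15 higher, or 4.82% and 3.29% of 456. Over all windows tested, 1.69% were called lower and 2.25% higher. The median log2 fold change of the tested members was -0.03. With the tested members ranked by level over all libraries, 20 of the 22 falls and 11 of the 15 rises were among the upper 152, with no fall and 1 rise among the lower 152. Of the falls, 18 were at least 2-fold, a count not given here over all windows tested. The 22 windows formed 9 loci of 1 to 5 kb, which held 30.7% of the summed N2 level of the members, or 45.6% with the window at chrII:2452017-2453016 set aside. The loci were chosen by this comparison, so their levels in N2 and nrde-3 are a description. Without scaling by TMM the counts were 24 lower and 4 higher, and the number higher fell to 7 without N2 replicate 1, 8 without nrde-3 replicate 1 and 9 without nrde-3 replicate 2. With replicates 1 and 2 of the met-2 double mutant left out of the fit, 23 were higher.

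The largest of the 9 loci was chrII:2091017-2096016, 5 adjoining windows. Its summed level was 10792, 9048 and 8397 CPM in N2 and 2468, 1737 and 4182 in nrde-3. The met-2 libraries held 2152, 1982 and 2085 CPM and the set-25 libraries 4301, 4614 and 4190. It was 8462, 6027 and 6854 CPM in the met-2 double mutant and 2432, 1945 and 1967 in the set-25 double mutant. The nrde-3, met-2 and set-25 double mutant means stood at 22.0% to 29.7% of the N2 mean, and none of their libraries overlapped N2. The set-25 mean stood at 46.4%, close to the highest nrde-3 library, and the met-2 double mutant, at 75.6%, had its highest library within the N2 range. In its fullest window, chrII:2091017-2092016, the log2 fold change against N2 was -1.61 ± 0.18 in nrde-3 (edgeR adjusted p = 3.36e-07), -1.92 ± 0.18 in met-2 (6.9e-10) and -1.07 ± 0.18 in set-25 (0.000174).

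At the right edge of the stretch, chrII:2996017-2999016 showed the steepest fall in nrde-3. Its window chrII:2996017-2997016 held 404, 355 and 362 CPM in N2 and 23.0, 15.4 and 54.2 in nrde-3. It held 8.48, 12.7 and 9.15 CPM in met-2, 171, 155 and 157 in set-25, and 23.1, 17.8 and 15.6 in the set-25 double mutant. In the met-2 double mutant it held 320, 212 and 227 CPM. The log2 fold change was -3.58 ± 0.25 in nrde-3 (edgeR adjusted p = 5.71e-11), -5.21 ± 0.28 in met-2 (adjusted p = 5.82e-15) and -0.57 ± 0.21 in the met-2 double mutant (adjusted p = 0.145). The next window, chrII:2997017-2998016, was built on one bin, chrII:2997057-2997076, which held 89.4% to 97.2% of its reads in every library. Its levels were 3107, 2861 and 2633 CPM in N2, 485, 347 and 1009 in nrde-3 and 238, 222 and 217 in met-2, so most of the fall of this window lay in 1 bin.

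The locus at chrII:2136017-2138016 was again low in nrde-3, met-2 and the set-25 double mutant. It held 2632, 2413 and 2179 CPM in N2, 384, 258 and 499 in nrde-3 and 289, 278 and 296 in met-2. The set-25 libraries held 1104, 1219 and 976 CPM, those of the set-25 double mutant 278, 222 and 258, and those of the met-2 double mutant 1779, 1199 and 1462. The nrde-3 libraries overlapped those of met-2 and of the set-25 double mutant, the latter lay at or just under those of met-2, and all 3 strains lay under set-25. The locus at chrII:2681017-2682016 differed in that met-2 fell less than nrde-3. It held 3421, 3386 and 3179 CPM in N2, 972, 766 and 1410 in nrde-3 and 1942, 1815 and 1991 in met-2, with log2 fold changes of -1.67 ± 0.15 (edgeR adjusted p = 6.53e-09) and -0.80 ± 0.14 (adjusted p = 5.48e-05). Its set-25 level was 57.1% of N2 and its set-25 double mutant level 28.6%.

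A further pair of loci of the same kind were smaller. At chrII:2501017-2504016 the mean level was 1376 ± 115 CPM in N2 (SD, n = 3) and 25.2% of that in nrde-3, 60.1% in set-25, 29.7% in met-2, 74.1% in the met-2 double mutant and 18.9% in the set-25 double mutant. At chrII:2660017-2662016 the N2 mean was 202 ± 13.3 CPM, and the shares in the same order were 27.6%, 36.0%, 26.5%, 56.9% and 11.2%. In nrde-3 this locus held 34.7, 29.2 and 103 CPM, so that 1 library carried most of the mean.

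The other 3 loci had another order of strains, with set-25 at or above N2. At chrII:2923017-2927016 the N2 libraries held 315, 346 and 359 CPM and the nrde-3 libraries 146, 149 and 164. The met-2 libraries held 10.5, 9.33 and 10.6 CPM and the set-25 libraries 413, 415 and 353. The met-2 double mutant was at 358, 304 and 293 CPM and the set-25 double mutant at 248, 231 and 233. This locus thus nearly vanished in met-2, stood at 45.0% of N2 in nrde-3, and none of its windows was called lower in set-25. In its window chrII:2924017-2925016 the log2 fold change was -5.23 ± 0.15 in met-2 (edgeR adjusted p = 8.83e-21), -1.10 ± 0.11 in nrde-3 (4.21e-08) and 0.19 ± 0.10 in set-25 (0.463). The single windows chrII:2295017-2296016 and chrII:2651017-2652016 were of low level, 39.7 ± 3.78 and 38.7 ± 1.52 CPM in N2. They stood at 69.5% and 59.8% of N2 in nrde-3, 32.1% and 26.0% in met-2, and 109% and 125% in set-25.

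**Figure D2:**
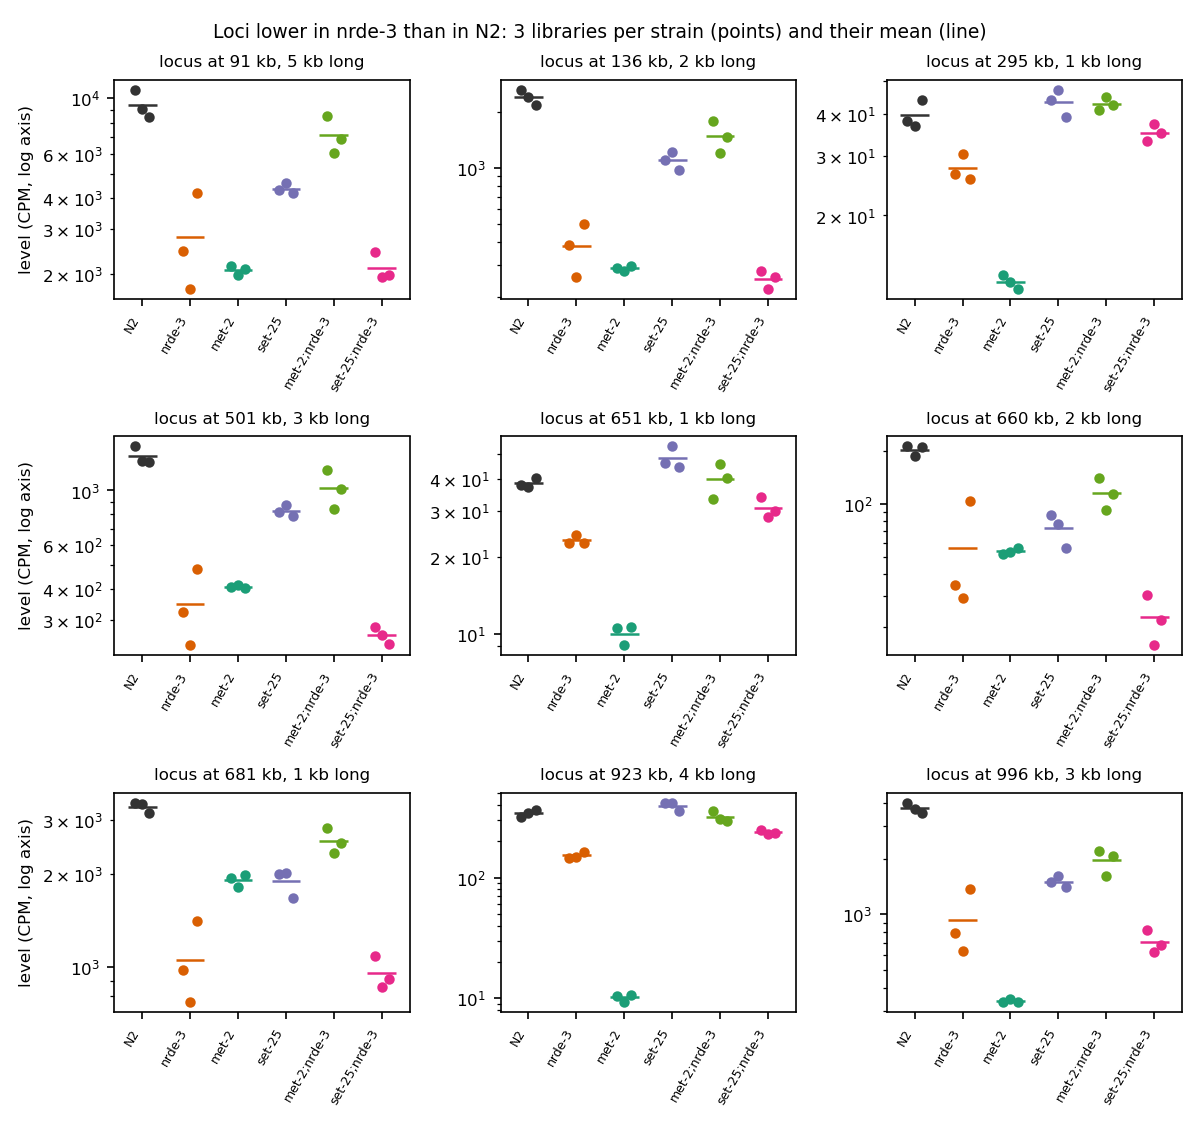
Summed level (CPM, log axis) of the 9 loci where nrde-3 windows fell below N2, with each of the 3 libraries per strain as a point and their mean as a line, and loci named by distance from the left edge of the stretch. The set-25 mean lies between the mean of N2 and the means of nrde-3 and the set-25 double mutant in 6 loci, and it lies above N2 in the loci at 295, 651 and 923 kb.

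The libraries of nrde-3 differed among themselves at these loci. Replicate 3 lay above replicates 1 and 2 in 18 of the 22 windows, and it also had the smallest share of reads in the right end of chromosome I, 32.9%. All nrde-3 libraries lay under all N2 libraries in each of the 22 windows, and without replicate 3 the test still called 21 of them lower. These windows were chosen by the same comparison, so the lack of overlap was largely set by that choice. In met-2 against N2, 159 of the 160 windows called lower likewise had no overlap. Such counts are not given here over all 10730 windows tested, so they do not set this stretch apart.

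A second, separate view of the loss of nrde-3 came from the strains that lack SET-25, whose libraries are not those of the first comparison. In the set-25 double mutant against set-25, 19 tested members were lower and 35 higher, or 4.17% and 7.68%, against 1.91% and 3.77% over all windows tested. Both lists of falls shared 18 windows, which are 81.8% of the 22 falls of nrde-3 against N2 and 94.7% of the 19 falls here. The median log2 fold change of the 22 windows was -1.34, against 0.05 over the tested members. At chrII:2996017-2997016 the change was -3.11 ± 0.27 (edgeR adjusted p = 8.81e-09), and at chrII:2136017-2137016 it was -2.12 ± 0.17 (adjusted p = 5.17e-09). Over the 456 tested members the log2 fold changes of the 2 comparisons had a Pearson r of 0.45 and a Spearman rho of 0.31. The windows are not independent, since adjoining windows share loci. The count of windows higher depended on single libraries: it was 22, 19 and 20 without set-25 replicates 1, 2 and 3, 20 and 18 without replicates 2 and 3 of the set-25 double mutant, and 3 without scaling by TMM, beside 19 lower.

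The strains that lack MET-2 gave the opposite sign. In the met-2 double mutant against met-2, 165 tested members were higher and 68 lower, or 36.2% and 14.9%, against 24.1% and 18.8% over all windows tested. All 22 windows that were lower in nrde-3 were among those higher here, which is 100% of the 22 and 13.3% of the 165. Their median log2 fold change was 1.97, against 0.47 over the tested members. At chrII:2924017-2925016 it was 5.23 ± 0.15 (edgeR adjusted p = 1.04e-20), from a met-2 mean of 5.16 ± 0.846 CPM to 195 ± 12.5. Set against nrde-3 versus N2 over the 456 windows, the changes had a Pearson r of -0.17 and a Spearman rho of -0.10. Without scaling by TMM the counts were 204 higher and 27 lower.

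**Figure D3:**
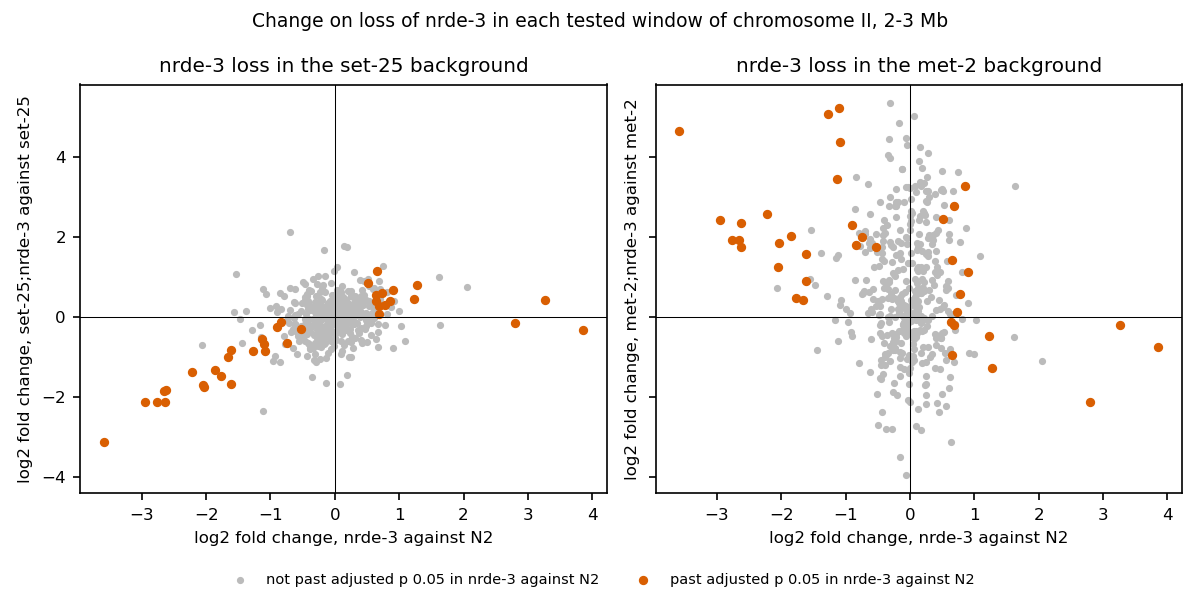
Log2 fold change of the 456 tested members on loss of nrde-3 in N2 (x axis) against the same on loss of nrde-3 in set-25 (left) or met-2 (right, y axes), each point 1 window. Marked are the windows past an edgeR adjusted p of 0.05 in nrde-3 against N2, 22 lower and 15 higher. The 22 lower windows lie under 0 on the y axis of the left panel and above 0 on that of the right panel.

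The libraries labelled met-2;nrde-3 were nearer to N2 than those of either single mutant at most of these loci. Against N2 they had 24 tested members higher and 18 lower, or 5.26% and 3.95%, against 2.63% and 2.03% over all windows tested. At the 9 loci their mean was 52.4% to 108% of N2, where nrde-3 stood at 15.8% to 69.5% and met-2 at 2.99% to 57.6%. These percentages share the N2 libraries as their base. At chrII:2996017-2997016 the lowest of the 3 libraries held 212 CPM, against 54.2 in the highest of nrde-3 and 12.7 in the highest of met-2, and replicate 3, which was not sparse, held 227. The counts for this strain depended on the libraries used. They were 12 higher and 5 lower with its sparse replicates 1 and 2 left out, and 30 higher and 40 lower without its replicate 3. They were 11 and 12 without N2 replicate 1, 14 and 11 without replicate 2 and 17 and 11 without replicate 3. Whether the labels or the sparse libraries had a part in this was not tested.

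The difference between the effects of nrde-3 in 2 backgrounds was tested as an interaction. Between the met-2 and N2 backgrounds, 141 tested members differed upward and 57 downward, against 18.8% and 11.4% over all windows tested, and the largest upward value was 8.22 ± 0.38 on the log2 scale at chrII:2996017-2997016 (edgeR adjusted p = 4.72e-16). Between the set-25 and N2 backgrounds only 8 differed upward and 1 downward, against 0.885% and 0.447% over all windows tested. The upward count was 3 without N2 replicate 2, N2 replicate 3 or nrde-3 replicate 1 and 4 without set-25 replicate 1, set-25 replicate 3 or replicate 1 of the set-25 double mutant. It was 2 without set-25 replicate 2 or replicate 2 of the set-25 double mutant, 5 without replicate 3 of the latter and 14 without nrde-3 replicate 3.

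How far reads kept their profile within the loci differed between loci. Over the bins of chrII:2091017-2096016, of which 204 of 250 held a read, the Spearman rho of a strain's bin counts with those of N2 was 0.85 for nrde-3, 0.89 for set-25, 0.81 for met-2, 0.87 in the met-2 double mutant and 0.83 in the set-25 double mutant. At chrII:2923017-2927016 rho was 0.82 in nrde-3 and 0.54 in met-2, where few reads remained. It was lower at chrII:2660017-2662016, from 0.50 in set-25 to 0.66 in nrde-3, and was 0.45 in met-2 at chrII:2295017-2296016. These values are across bins of pooled libraries and also move with depth. One bin stood apart within the locus at chrII:2091017-2096016, singled out after its values were seen. The bin chrII:2094697-2094716 held 16.4%, 17.7% and 17.8% of the reads of its 1 kb window in N2, against 32.5%, 30.8% and 35.6% for nrde-3. In the set-25 double mutant it held 38.0%, 34.3% and 30.1%, in set-25 it held 23.5%, 20.2% and 18.3%, and in met-2 it held 17.9%, 16.7% and 19.8%. The met-2 double mutant had 20.5%, 18.05% and 17.1%. The libraries of nrde-3 and the set-25 double mutant thus lay above all others, although the window as a whole was as low in met-2.

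**Figure D4:**
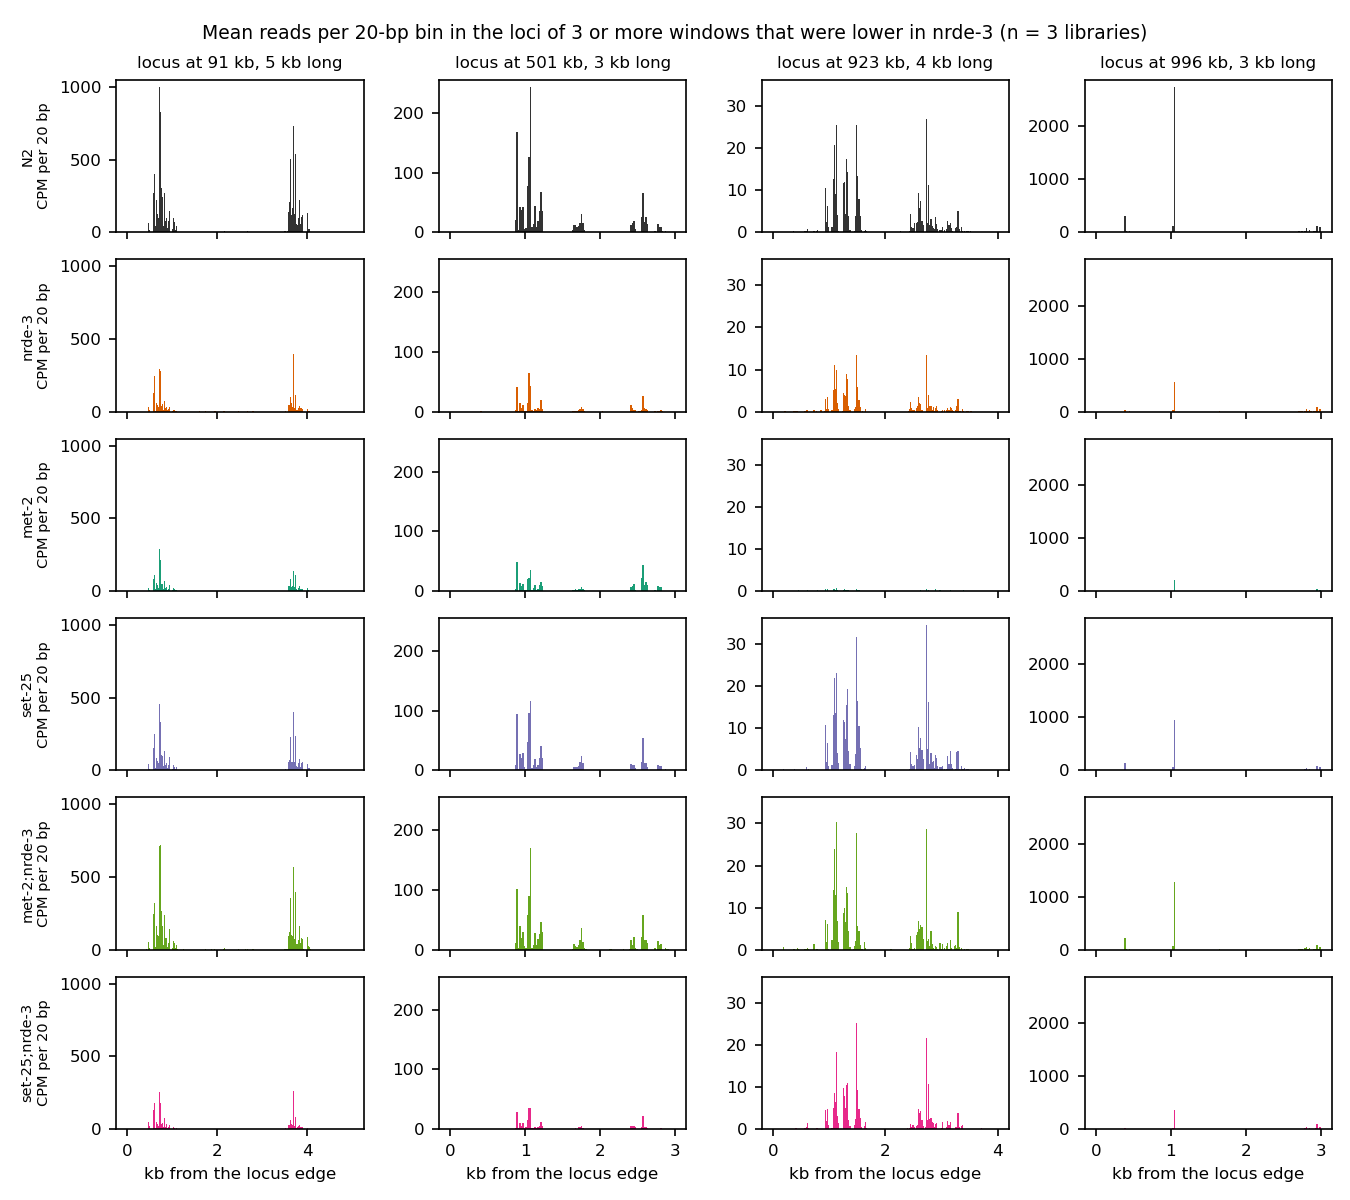
Mean level (CPM) of each 20 bp bin along the 4 loci of 3 or more windows that were lower in nrde-3, by distance in kb from the left end of the locus, with 1 row of bars per strain and a shared linear y axis in each column. Peaks stand at like places in the strains, the locus at 923 kb is nearly empty in met-2, and in the locus at the right edge of the stretch 1 bin carries most of the reads.

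Loss of MET-2 changed the stretch most widely. In met-2 against N2, 160 of the 456 tested members were lower and 67 higher, or 35.1% and 14.7%, against 23.0% and 15.3% over all windows tested. The median log2 fold change was -0.41, against 0.02 over all windows tested, and 144 of the falls and 34 of the rises were at least 2-fold. Neither 2-fold count is given here over all windows tested, so they do not set this stretch apart. Ranked by level, falls were counted in 35 of the lower, 49 of the middle and 76 of the upper 152 windows. Without scaling by TMM 201 were lower and 25 higher, on a scale where the median of all windows shifted to -0.48. The median differed along the stretch, from -1.97 in the 17 tested windows of the fourth 100 kb to 0.47 in the 39 of the fifth.

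The windows lower in met-2 often adjoined. Runs of 3 or more windows numbered 19 and held 100 of the 160, the longest with 12 windows each. The run at chrII:2066017-2078016 held 1020, 1104 and 1104 CPM in N2 and 306, 297 and 274 in met-2. In nrde-3 it held 1325, 1272 and 1271 CPM, in set-25 it held 923, 936 and 936, and the double mutants stood at 84.9% and 100% of N2 with met-2 and set-25. As a sum it was thus low in the met-2 libraries and in no other strain below 84.9% of N2. That sum came mostly from chrII:2068017-2069016, with 13464 unscaled reads in N2, 6942 in the met-2 double mutant and 8445 in the set-25 double mutant. No other window of the run held more than 562 in N2. At chrII:2075017-2076016 the counts in the same order were 425, 136 and 128, so the sum does not describe each window. The other run of that length, chrII:2513017-2525016, fell to 53.4% of N2 in met-2, with nrde-3 at 100%, set-25 at 73.8% and the double mutants at 81.1% and 85.9%.

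The deepest falls in met-2 outside the nrde-3 loci lay at chrII:2341017-2344016. The N2 libraries held 187, 192 and 170 CPM there, the nrde-3 libraries 171, 173 and 172 and the set-25 libraries 203, 202 and 206. The met-2 libraries held 4.62, 7.35 and 10.3 CPM, which is 4.06% of N2. The met-2 double mutant held 257, 145 and 207 CPM and the set-25 double mutant 173, 159 and 155. Only the met-2 libraries were low, and in the window chrII:2342017-2343016 the log2 fold change was -5.03 ± 0.38 in met-2 (edgeR adjusted p = 9.93e-12) and 0.07 ± 0.23 in nrde-3 (adjusted p = 0.965).

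Rises in met-2 were fewer, and 33 of the 67 lay in 8 runs of 3 or more windows. At chrII:2988017-2992016 the N2 libraries held 104, 106 and 112 CPM and the met-2 libraries 731, 834 and 784. The set-25 libraries held 187, 168 and 158 CPM, those of the set-25 double mutant 278, 262 and 271, and those of nrde-3 120, 119 and 120. The met-2 double mutant was back at 129, 161 and 120 CPM. In the window chrII:2989017-2990016 the log2 fold change was 2.90 ± 0.13 in met-2 (edgeR adjusted p = 5.02e-17), 0.61 ± 0.13 in set-25 (0.00262) and 1.24 ± 0.13 in the set-25 double mutant (3.23e-08). This run ends 4 kb before the locus at chrII:2996017-2999016, which fell in the same met-2 libraries to 9.03% of N2.

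Near the left edge, chrII:2008017-2009016 and the next window followed a like pattern. The first held 41.7, 48.7 and 40.2 CPM in N2, 484, 583 and 480 in met-2, and 138, 145 and 120 in the set-25 double mutant. The set-25 libraries held 67.4, 81.7 and 69.9 CPM and the met-2 double mutant 67.8, 80.9 and 89.2. The nrde-3 libraries, at 26.6, 35.4 and 30.4 CPM, were the lowest, though that fall missed the threshold (log2 fold change -0.49 ± 0.15, edgeR adjusted p = 0.0567). Farther along, chrII:2272017-2273016 passed the test in met-2 and in no other mutant, from 4.86, 7.60 and 8.48 CPM in N2 to 113, 103 and 113 in met-2.

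A single run of windows was called higher in nrde-3, and none of its windows was called higher in another mutant. At chrII:2004017-2008016 the N2 libraries held 68.6, 79.7 and 81.5 CPM and the nrde-3 libraries 225, 258 and 215, or 304% of N2. The met-2 libraries held 36.0, 34.2 and 36.3 CPM and the set-25 libraries 25.5, 22.1 and 19.6. The double mutants held 23.0, 21.4 and 25.4 CPM with met-2 and 36.2, 24.9 and 27.5 with set-25. As a sum, all mutants other than nrde-3 thus lay under N2, the double mutants included. That sum came mostly from chrII:2004017-2005016, with 1031 unscaled reads in N2, 1463 in nrde-3 and 303 in met-2. No other window of the run held more than 51 in N2. At chrII:2006017-2007016 the counts in the same order were 29, 257 and 25, so the sum does not describe each window. In the window chrII:2006017-2007016, at 2.30, 2.07 and 1.61 CPM in N2 and 31.1, 31.9 and 24.8 in nrde-3, the log2 fold change was 3.86 ± 0.39 (edgeR adjusted p = 9.27e-08). Of the 15 windows higher in nrde-3, 5 were also higher in the set-25 double mutant against set-25 and 6 in the met-2 double mutant against met-2, and none of the 4 windows of this locus was.

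Loss of SET-25 changed fewer windows. In set-25 against N2, 33 tested members were lower and 18 higher, or 7.24% and 3.95%, against 2.09% and 2.06% over all windows tested. The median log2 fold change was -0.07, and 14 falls and 7 rises were at least 2-fold, counts not given here over all windows tested. The number higher was 11 without any one of the N2 libraries, and 21 were lower without set-25 replicate 3. Without scaling by TMM 117 were lower and 2 higher, on a scale where the median of all windows was -0.58. In the set-25 double mutant against N2, 33 were lower and 44 higher, or 7.24% and 9.65%, against 3.63% and 5.63% over all windows tested. Without scaling by TMM these were 184 and 10.

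The clearest rise in set-25 was in chrII:2269017-2270016. It held 1.79, 1.21 and 1.82 CPM in N2 and 2.26, 3.25 and 2.17 in nrde-3. It held 17.4, 18.7 and 16.9 CPM in set-25, 30.3, 36.8 and 37.2 in met-2, 25.5, 20.6 and 26.8 in the set-25 double mutant and 24.6, 31.8 and 26.4 in the met-2 double mutant. The 4 strains that lack a methyltransferase were all high and the 2 that keep both were low, with no overlap. The log2 fold change was 3.46 ± 0.26 in set-25 (edgeR adjusted p = 4.4e-10) and 4.43 ± 0.25 in met-2 (1.32e-14). The difference between double and single mutant was 0.45 ± 0.19 with set-25 (adjusted p = 0.226) and -0.32 ± 0.18 with met-2 (0.155). Its run of 3 windows, chrII:2267017-2270016, stood at 249% of N2 in met-2, 257% in set-25, 370% in the met-2 double mutant and 345% in the set-25 double mutant, with nrde-3 at 155%. The sum does not describe each window. At chrII:2267017-2268016 the unscaled reads were 326 in N2, 304 in nrde-3 and 244 in met-2. At chrII:2269017-2270016 they were 23, 23 and 374 in the same order.

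The 2 methyltransferase mutants moved apart at chrII:2160017-2163016. The N2 libraries held 796, 847 and 887 CPM and those of nrde-3 held 810, 864 and 846. The met-2 libraries were at 2233, 2440 and 2352 CPM and the set-25 libraries at 472, 450 and 452. The double mutants held 585, 613 and 620 CPM with met-2 and 617, 636 and 596 with set-25, both under N2. In the window chrII:2160017-2161016 the log2 fold change was 1.63 ± 0.10 in met-2 (edgeR adjusted p = 6.4e-14) and -0.99 ± 0.10 in set-25 (6.27e-08). The interval chrII:2155017-2159016, just to its left, was high in met-2 at 159% of N2 and in the set-25 double mutant at 162%. The met-2 double mutant stood there at 131% and set-25 at 111%. In met-2 the rise was not separate, since 1 run of 6 windows called higher, chrII:2157017-2163016, reached over both.

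A small set of windows was higher when nrde-3 was lost beside set-25. At chrII:2481017-2484016 the N2 libraries held 55.6, 59.6 and 75.3 CPM, those of set-25 held 29.3, 37.5 and 36.2, and those of the set-25 double mutant 82.0, 89.2 and 79.5. The libraries of the set-25 double mutant thus lay above both. Against N2, however, the test called 0 of the 39 tested windows of the fifth 100 kb, which holds this run, higher in that strain. The window chrII:2646017-2647016, at 6.98, 8.07 and 12.6 CPM in set-25 and 24.7, 35.7 and 33.5 in the set-25 double mutant, had a log2 fold change of 1.77 ± 0.30 (edgeR adjusted p = 0.000261). It was at 0.514, 1.41 and 0.886 CPM in met-2.

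**Figure D5:**
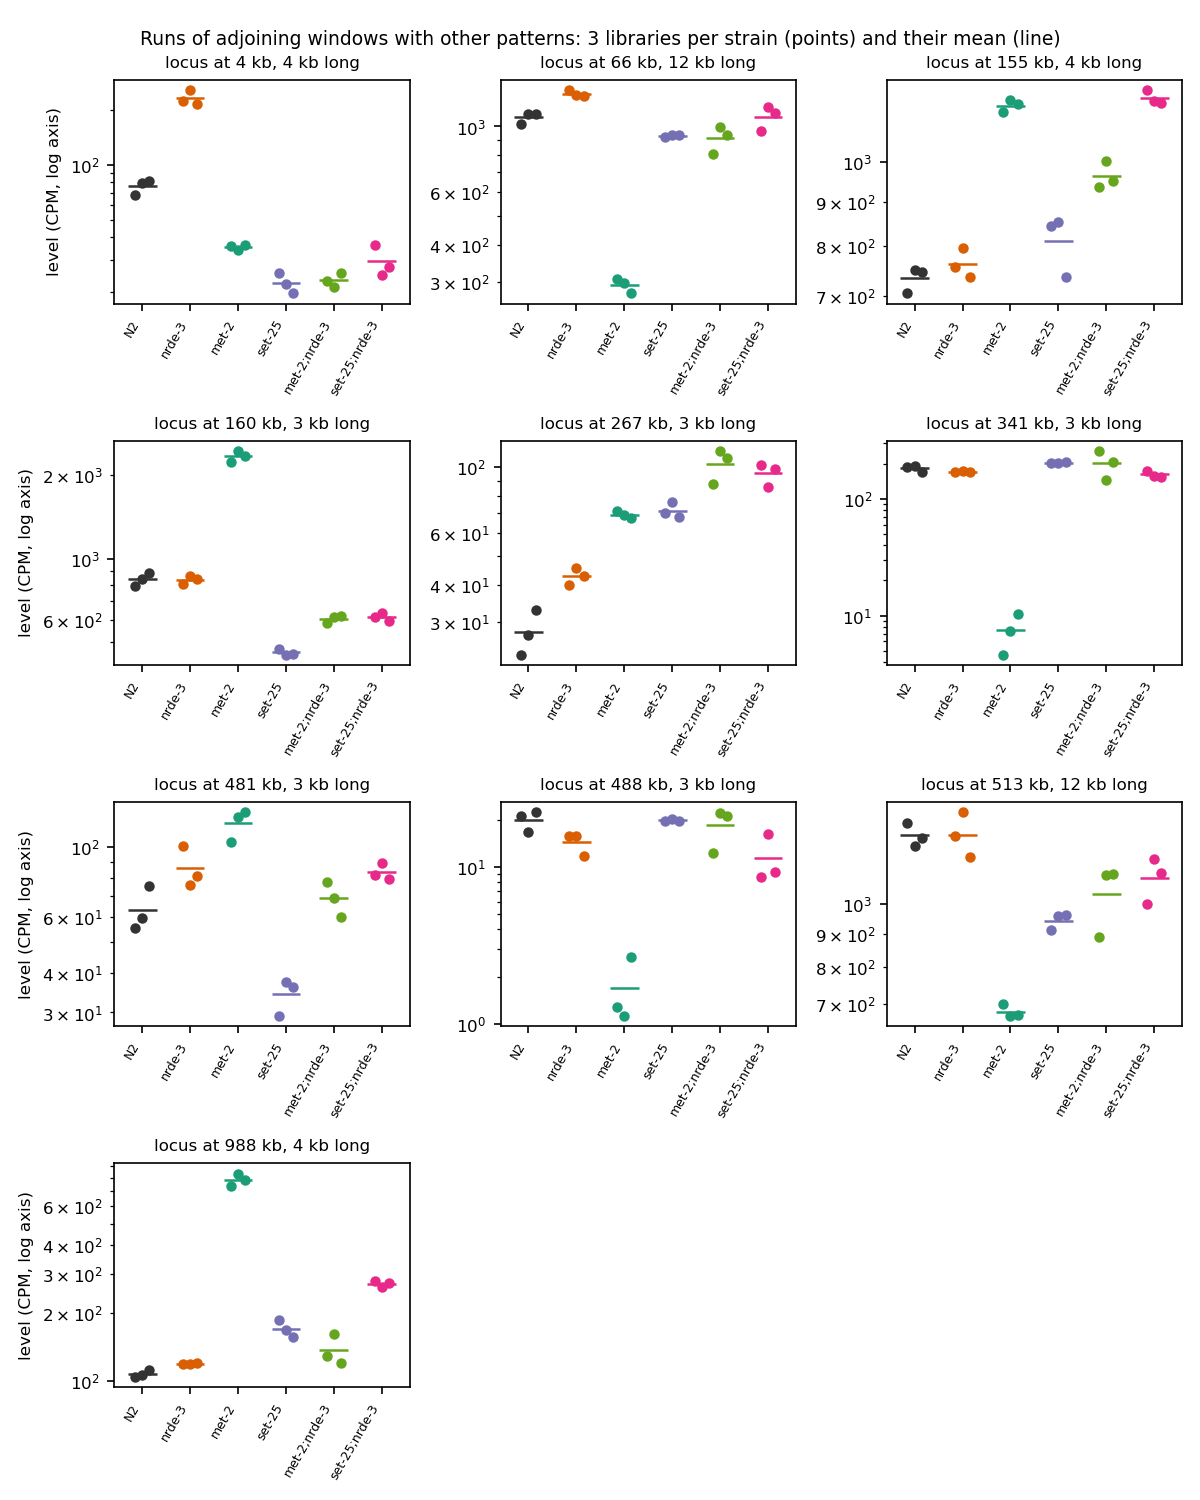
Summed level (CPM, log axis) of 10 runs of adjoining windows with other orders of strains, each library a point and the mean of each strain a line, named by distance from the left edge and by length. Only nrde-3 is high in the run at 4 kb, met-2 is by far the lowest in the runs at 66, 341 and 488 kb, and met-2 and set-25 lie on opposite sides of N2 in the runs at 160 and 481 kb.

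Some abundant windows passed the test in few comparisons or none. The window chrII:2034017-2035016 held 3016, 2883 and 2908 CPM in N2, 3115, 3223 and 2772 in nrde-3 and 4228, 4344 and 4405 in met-2. It was called in 3 of the 7 comparisons of 2 strains: met-2 against N2 (log2 fold change 0.56 ± 0.09, edgeR adjusted p = 9.82e-06), the met-2 double mutant against met-2 (-0.36 ± 0.09, adjusted p = 0.00183) and the set-25 double mutant against set-25 (0.34 ± 0.09, adjusted p = 0.0231). None of these calls held under library totals. The call in the set-25 double mutant against set-25 was also lost with no filter (edgeR adjusted p = 0.0896). It was lost as well without set-25 replicate 1, 2 or 3 or replicate 2 or 3 of the set-25 double mutant (edgeR adjusted p from 0.0609 to 0.125). The window chrII:2040017-2041016 held 2628, 2525 and 2526 in N2 and 2631, 2406 and 2473 in met-2. It passed in none of the 7 comparisons of 2 strains. The window chrII:2871017-2872016 held 2162, 2110 and 2008 CPM in N2 and between 1934 and 2191 in each library of every mutant except met-2, where it held 1339, 1298 and 1225 (log2 fold change -0.70 ± 0.09 in met-2, edgeR adjusted p = 1.67e-07).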

How the data were processed

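The authors deposited counts, whole numbers of reads for bins of 20 bp in each library, without regard to strand. Per the labels' protocols, small RNA was treated with TAP so that capped and triphosphate ends could be ligated, prepared with the QiaSeq miRNA kit and sequenced as single-end reads of 50 bases, and the series' design text names clipping and collapsing with the FASTX-Toolkit and mapping with QuasR to WS220 (ce10), with versions not given in the sources used here. That text mentions scaling to total reads and a split by read length as well. Neither is visible in the deposited whole numbers, which were taken as unscaled counts. The annotation at hand was of another build and coordinates were not converted, so windows carry no gene names and no sequence is printed.

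Windows of 1 kb were counted over the whole table and fitted together for all 18 libraries and 6 strains in edgeR 4.0.16 (R 4.3.3), with filterByExpr at a minimum count of 10, TMM factors, glmQLFit and glmQLFTest, and Benjamini-Hochberg adjustment over 10730 windows in each comparison. CPM are read counts scaled to library size after TMM. A standard error is the size of a log2 fold change over the root of its F statistic. A group with 3 reads or fewer in a window is given no fold change. Exact permutation tests, two-sided, compared the shares of reads. In simulated data for nrde-3 against N2 with 9814 windows tested, rises were recovered at 70% when 2-fold and 100% when 4-fold, falls at 56% when 2-fold and 92% when 4-fold, and 5.36% of the calls were false. The changed windows were drawn only from those well filled in N2, so these rates of recovery do not describe low windows. Library sizes of 1680028 to 4384593 reads limit what low windows can show. Same-numbered libraries were no more alike than others (correlations of deviations from -0.067 to 0.069), so no block was used.

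Windows named were the 12 with the highest N2 level, in each comparison with N2 up to 8 rises and 8 falls that passed the threshold, lay above the median level and did not overlap, up to 3 of each in the other comparisons, runs of 3 or more windows called alike, and 3 windows at either end by the share of reads in 1 bin. A part of the 63 windows so named is printed. The members, the naming rule and the loci were chosen with earlier results of these data known. Alternatives were RLE factors, library totals without TMM, DESeq2 1.42.0, no filter, a minimum count of 100, only the strains compared, a replicate block, a grid shifted by 500 bp, leaving out the last 13 kb of chromosome I, leaving out 2 sparse libraries and each library left out in turn. Further tools were data.table (version 1.17.8), Python 3.11.15, matplotlib 3.10.9 for the plots, pandas 2.3.3, numpy 2.4.6 and scipy 1.17.1.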

Additional observations from a re-analysis of the deposited data

Results flagged for a closer look

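The effect of losing nrde-3 differed between backgrounds in windows picked out by the test of the difference itself, the interaction term in edgeR with its adjusted p. With met-2 as the background, the difference was 8.22 ± 0.38 on the log2 scale at chrII:2996017-2997016 (SE, adjusted p = 4.72e-16), 6.36 ± 0.33 at chrII:2925017-2926016 (8.51e-15) and 6.33 ± 0.19 at chrII:2924017-2925016 (1.14e-19). These windows fell in nrde-3 against N2 and were higher in the met-2 double mutant than in met-2. In the other direction it was -4.91 ± 0.85 at chrII:2005017-2006016 (3.63e-05), -4.60 ± 0.69 at chrII:2006017-2007016 (4.35e-06) and -3.86 ± 0.39 at chrII:2272017-2273016 (4e-09).

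With set-25 as the background the difference was 1.57 ± 0.41 at chrII:2481017-2482016 (adjusted p = 0.0489), 1.37 ± 0.20 at chrII:2008017-2009016 (8.09e-05) and 1.12 ± 0.24 at chrII:2009017-2010016 (0.00858). It was -4.17 ± 0.79 at chrII:2006017-2007016 (0.00279), where the nrde-3 libraries held 31.1, 31.9 and 24.8 CPM and those of the set-25 double mutant 0.824, 1.54 and 0.663. The call at chrII:2481017-2482016 was lost under RLE factors, library totals, the replicate block and 8 of the 12 omissions of a single library, with adjusted p values up to 0.153. The call at chrII:2006017-2007016 was lost without set-25 replicate 2 (adjusted p = 0.0669), and DESeq2 gave it no adjusted p. That at chrII:2009017-2010016 was lost under library totals (adjusted p = 0.0504).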

How the results depend on the processing

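Scaling by library totals moved counts most, as the median of all windows then shifted by -0.29 for nrde-3, -0.48 for met-2, -0.58 for set-25, -0.77 for the set-25 double mutant and -0.07 for the met-2 double mutant, all against N2. Under it the windows higher numbered 4, 25, 2, 10 and 10 in that order, with 117 lower in set-25, 184 in the set-25 double mutant and 5 in the met-2 double mutant. The set-25 double mutant against set-25 then had 3 higher and the met-2 double mutant against met-2 had 27 lower, and the interactions had 1 upward with set-25 and 22 downward with met-2. Of 139 named values, 2 changed direction, both under library totals: chrII:2452017-2453016 in met-2 against N2 (-0.018) and chrII:2034017-2035016 in the met-2 double mutant against met-2 (0.084). The cause was not tested. Over 2112 alternatives of named values, 1977 kept direction and call and 133 lost the call, spread over 37 of the 139 values.

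With replicates 1 and 2 of the met-2 double mutant left out, 23 windows were higher in nrde-3, 12 higher and 5 lower in the met-2 double mutant against N2, and 18 and 2 differed in the interaction with set-25. At a minimum count of 100, where 150 members were tested, 77 were lower in met-2, 75 higher and 43 lower in the met-2 double mutant against met-2, and the interactions had 2 downward with set-25 and 78 upward with met-2. With only the 2 strains compared in the fit, 52 were lower in set-25, and 14 higher and 8 lower in the met-2 double mutant against N2. With no filter, 30 were lower in the latter and 23 higher in the set-25 double mutant against set-25. The upward interaction with set-25 had 5 windows under RLE factors and 16 in DESeq2, with 0 downward there, where edgeR had 8 and 1.

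The replicate numbers did not pair the libraries, and with the replicate number as a block the upward interaction with set-25 had 2 windows, while all other counts stayed within 1.5 times. Leaving out each library in turn gave 7 to 14 higher and 20 to 22 lower in nrde-3, 56 to 62 and 138 to 152 in met-2, 11 to 14 and 21 to 29 in set-25, 32 to 43 and 26 to 30 in the set-25 double mutant and 11 to 30 and 11 to 40 in the met-2 double mutant. It gave 18 to 34 and 15 to 20 in the set-25 double mutant against set-25, 144 to 166 and 63 to 83 in the met-2 double mutant against met-2, and 2 to 14 and 0 to 2, and 127 to 148 and 49 to 66, in the interactions with set-25 and met-2.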

Other observations

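The window chrII:2457017-2458016 was, like the fullest window of the stretch 5 kb to its left, built on 1 bin, chrII:2457437-2457456. That bin held 6.40, 6.73 and 8.07 CPM in N2, 13.99, 4.43 and 6.51 in nrde-3, 8.22, 9.90 and 14.2 in met-2 and 4.89, 5.99 and 8.27 in set-25. The strains overlapped there.

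Windows lower in nrde-3 were not evenly placed. Of the 22, 7 lay in the last 100 kb of the stretch, where 36 members were tested, and 5 in the first, where 78 were tested, while 4 of the others had none, among 17, 39, 39 and 56 tested windows. Members with at most 3 reads in a strain as a whole numbered 4 for N2, 16 for set-25, 38 for nrde-3, 66 for met-2, 57 for the met-2 double mutant and 40 for the set-25 double mutant, and these counts also move with depth.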
